A study of Mus musculus with 2 samples.

Results

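Potassium channel genes were taken as all protein-coding genes of the GRCm38 gene table whose symbol starts with Kcn, with 1 gene of the inward rectifier subfamily not analysed here. This gave 93 of 21887 protein-coding genes, in 21 subfamilies by symbol prefix. ATAC-seq marks accessible chromatin: the enzyme Tn5 cuts nuclear DNA where it is exposed and attaches adapters there, and each attachment read out by sequencing counts as 1 insertion. Adult mice of the C57BL/6 strain gave the neural retina, which was flash-frozen before nuclei were taken. Wild-type retina gave 1 library, and littermate retina with the genotype Gabra3 knockout gave the other. The series asks how DNA accessibility differs between the genotypes. Gabra3 is the gene of a GABA-A receptor subunit, alpha 3. The labels used here do not give the knockout allele, the age in weeks, or whether a library pooled animals.

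Potassium channels let potassium leave the cell and so set the resting potential and end electrical signals. Voltage-gated pore subunits assemble as tetramers, to which electrically silent modifier subunits and auxiliary subunits can be added. Inward rectifiers and the leak channels with a pair of pore domains hold the resting potential, and other channels open with intracellular calcium or sodium. In photoreceptors the outward potassium current of the inner segment balances the cation current that light shuts off, and the silent modifier gene Kcnv2 encodes a subunit of the channel that carries it.

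The wild-type library held 7635799 insertions and the knockout library 7646373, after reads with a mapping quality under 10 and repeats of a position and strand were left out. Of the autosomal insertions 19.6% in the wild-type library and 18.8% in the knockout library fell into 36825 open regions called on both libraries together. Each ratio is the log2 of the knockout count over the wild-type count, scaled to those insertions, with a pseudocount of 0.5, and scaling to all autosomal insertions lowers each of them by 0.06. Brackets hold exact (Clopper-Pearson) 95% intervals that cover counting error only. With 1 library per genotype there is no replicate error and no test, so every ratio compares these libraries and not the genotypes, and a smaller number of cells of a type cannot be told apart from a less open gene in each cell. The tissue label was checked on ends of marker genes with at least 20 insertions, a level that 54.3% of all genes reached. It was reached by 8 of 8 rod, 3 of 5 cone, 3 of 5 bipolar cell and 2 of 4 Muller glia markers. Elsewhere 1 of 5 markers of retinal pigment epithelium, 1 of 4 of lens, 1 of 4 of liver and 2 of 4 of skeletal muscle (Mylpf and Ckm) reached it. Only the rod markers stood clearly above the share of all genes. For Sag and Pde6b (rod), Ckm, Cryaa (lens) and Apoa1 (liver) the end counted was the one away from the transcription start.

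A promoter window is the 500 bp either side of the end of a gene that held more insertions, summed over both libraries, because the gene table gives no strand. All windows have the same length, so their counts can be compared between genes. A separate RefSeq table (GRCm38.p6) gave transcription starts for 68 of the 93 genes. Of these 68 windows 54 were at the start side of the gene and 14 at the far end. Among the 31 with at least 20 insertions 29 were at the start side, and the others were those of Kcnk12 and Kcnn4. Kcn windows at the far end are named as such where they are described. The sequences that follow, from that table, are the 250 bases before the start, 5′ to 3′, with each CpG in capitals, and show how base composition varied among windows of high, middle and low counts. Kcnab2 (chr4:152477550-152477799, minus strand) had the fullest window of the family. Kcnn1 (chr8:70857009-70857258, minus strand) is shown at a start inside the gene, and Kcnj2 (chr11:111065914-111066163, plus strand) is an open inward rectifier gene. Kcna3 (chr3:107035912-107036161, plus strand) and Kcnf1 (chr12:17176889-17177138, minus strand) had equal counts. Kcnj6 (chr16:94997697-94997946, minus strand) had few insertions, and Kcnq1ot1 (chr7:143296548-143296797, minus strand) is the noncoding antisense gene that starts inside Kcnq1.
Kcnab2: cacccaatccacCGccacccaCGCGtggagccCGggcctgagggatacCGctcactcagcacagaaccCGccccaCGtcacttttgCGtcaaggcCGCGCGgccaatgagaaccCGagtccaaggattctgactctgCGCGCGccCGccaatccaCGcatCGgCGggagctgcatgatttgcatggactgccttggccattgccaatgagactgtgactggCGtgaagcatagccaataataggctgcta
Kcnn1: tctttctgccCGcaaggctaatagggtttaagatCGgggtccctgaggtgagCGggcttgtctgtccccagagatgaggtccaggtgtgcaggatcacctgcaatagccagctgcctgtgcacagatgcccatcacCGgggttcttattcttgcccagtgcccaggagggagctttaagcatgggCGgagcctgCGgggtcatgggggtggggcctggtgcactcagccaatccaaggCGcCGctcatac
Kcnj2: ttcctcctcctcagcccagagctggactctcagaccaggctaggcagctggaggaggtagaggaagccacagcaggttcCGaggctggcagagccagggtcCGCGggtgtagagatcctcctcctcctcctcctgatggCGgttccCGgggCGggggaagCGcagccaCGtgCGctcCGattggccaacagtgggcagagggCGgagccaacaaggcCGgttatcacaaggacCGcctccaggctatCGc
Kcna3: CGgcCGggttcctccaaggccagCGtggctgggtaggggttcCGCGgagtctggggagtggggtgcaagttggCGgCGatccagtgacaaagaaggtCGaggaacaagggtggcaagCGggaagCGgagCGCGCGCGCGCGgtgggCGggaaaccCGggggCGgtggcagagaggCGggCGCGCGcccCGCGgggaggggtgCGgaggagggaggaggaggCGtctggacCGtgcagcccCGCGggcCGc
Kcnf1: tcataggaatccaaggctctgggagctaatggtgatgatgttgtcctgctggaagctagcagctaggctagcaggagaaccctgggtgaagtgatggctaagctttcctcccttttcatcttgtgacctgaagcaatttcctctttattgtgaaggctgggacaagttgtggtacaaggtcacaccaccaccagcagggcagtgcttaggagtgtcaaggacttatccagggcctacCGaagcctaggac
Kcnj6: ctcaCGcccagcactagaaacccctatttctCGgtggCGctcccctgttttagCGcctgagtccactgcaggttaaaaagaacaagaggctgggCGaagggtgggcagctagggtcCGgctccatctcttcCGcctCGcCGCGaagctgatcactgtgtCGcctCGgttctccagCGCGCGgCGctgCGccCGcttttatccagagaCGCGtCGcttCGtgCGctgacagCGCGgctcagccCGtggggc
Kcnq1ot1: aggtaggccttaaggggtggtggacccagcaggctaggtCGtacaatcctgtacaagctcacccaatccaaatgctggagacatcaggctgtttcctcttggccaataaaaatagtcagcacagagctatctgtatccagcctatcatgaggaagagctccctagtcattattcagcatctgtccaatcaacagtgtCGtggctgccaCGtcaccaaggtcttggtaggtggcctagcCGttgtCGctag

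Among these 7 sequences, chosen for contrast after their values were seen, CpG number and insertions did not follow each other. Kcna3 held 31 CpG and Kcnf1 held 1, and the 500 bp either side of each start held 24 wild-type and 23 knockout insertions in both cases. Kcnj6 held 26 CpG with 7 and 10 insertions, and Kcnab2 held 20 CpG with 164 and 156. Kcnq1ot1 had 5 CpG with 95 and 86 insertions, Kcnn1 had 8 with 57 and 62, and Kcnj2 had 14 with 25 and 31. A comparison of base composition or motifs over the whole family is void, because 73.1% of the genes had a start in the table. Of the motifs searched on both strands, the GC box GGGCGG was in the sequences of Kcnab2, Kcnn1, Kcnj2 and Kcna3 and in 44.1% of 17492 promoters of the same length, 1 per protein-coding gene. The E-box CACGTG was in the Kcnj2 sequence and in 6.76% of those promoters. CCAAT was in Kcnab2, Kcnn1, Kcnj2 and Kcnq1ot1 and in 36.2% of them, and CAGCTG was in Kcnn1 and Kcnj2 and in 11.6%. The photoreceptor homeobox core TAATCC (in 5.89% of those promoters) and the AP-1 site TGANTCA (in 6.03%) were in none of the 7 sequences. CACGTG and CAGCTG are both forms of the E-box CANNTG but cannot match the same 6 bases. How often a motif occurs in these chosen sequences says nothing of the family, and a match is a description of the letters only.

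Most potassium channel promoters were weakly open in both libraries. The median window held 9 wild-type and 10 knockout insertions, against 13 and 13 over all protein-coding genes. Of the 93 genes 46 (49.5%) had at least 20 insertions summed over both libraries, against 54.3% of all genes, which is a similar share. The gap was at the upper end: 14 (15.1%) had at least 50, against 42.5% of all genes, and 7 (7.53%) had at least 100, against 34.3%. None of the 93 windows was empty, and 72 held at least 10 insertions, against 67.7% of all genes. Sodium channel genes of the Scn prefix, which carry the upstroke of the action potential, had 0 of 14 windows with at least 50 insertions, and calcium channel genes of the Cacn prefix had 3 of 26. These differences in share were not tested.

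**Figure D1:**
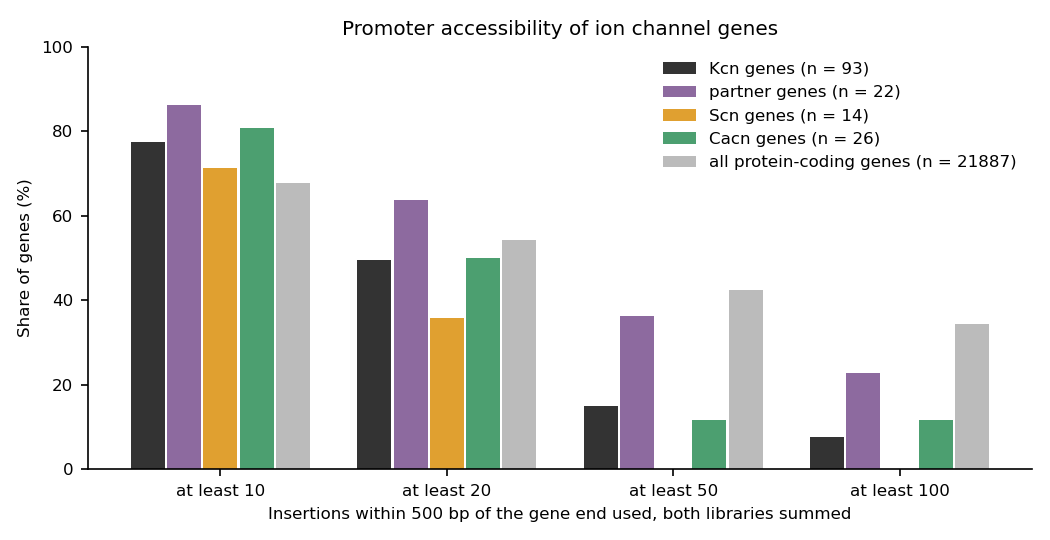
Share of genes (%, bars) whose promoter window held at least 10, 20, 50 or 100 insertions summed over both libraries, for the 93 Kcn genes, 22 partner genes, 14 Scn genes, 26 Cacn genes and all 21887 protein-coding genes. At 100 or more the Kcn bar stands at 7.53% and the bar of all genes at 34.3%.

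The average profile shows the same in space. In the 100 bp before the gene end used, Kcn genes averaged 2.33 wild-type and 2.41 knockout insertions per gene, and all genes averaged 9.17 and 8.73. At 1900 to 2000 bp before that end the Kcn genes averaged 0.35 and 0.52 and all genes 0.48 and 0.49, so the flanks were alike and the peak was lower. The end was chosen by its insertions in both sets alike, which raises the centre of both profiles.

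**Figure D2:**
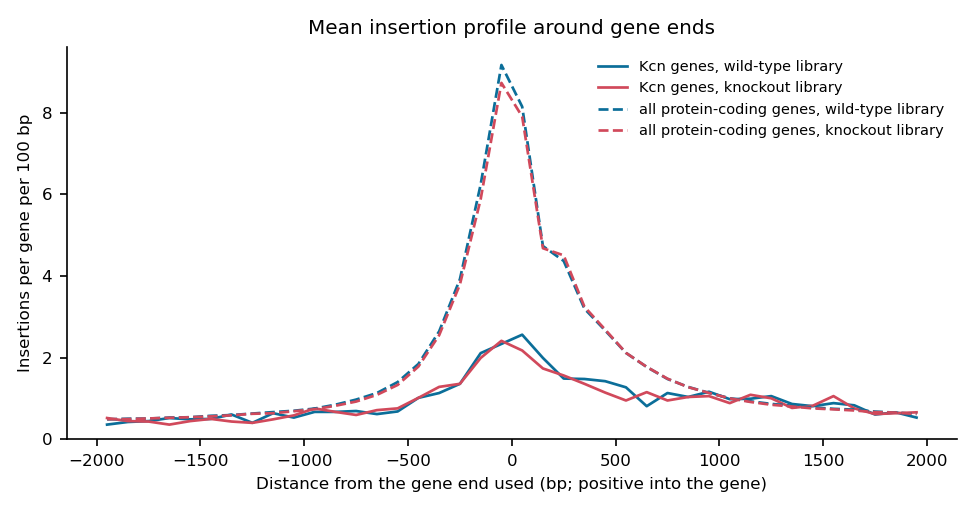
Mean insertions per gene in bins of 100 bp against the distance from the gene end used (bp, positive into the gene), for Kcn genes (solid) and all protein-coding genes (dashed) in the wild-type (blue) and knockout (red) libraries. In the bin just before the end, the Kcn lines reach 2.33 and 2.41 and the dashed lines 9.17 and 8.73.

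Voltage-gated pore subunit genes (Kcna, Kcnb, Kcnc, Kcnd, Kcnh and Kcnq) had 19 of 30 windows with at least 20 insertions, and 3 with at least 100. Kcnh2, the gene of the ERG channel that repolarizes cardiac cells, had 56 and 64 (0.25, -0.29 to 0.80). Kcnb2, a delayed rectifier gene, had 46 and 39 (-0.18, -0.83 to 0.47). In both genes the libraries differed by less than counting error allows. Kcna4, a gene of a rapidly inactivating channel, had 33 and 27, and Kcnc1, a gene of fast-spiking neurons, had 19 and 28. Kcnc2, a gene of the same subfamily, was nearly closed at its gene end with 6 and 4, and Kcna1, a gene of an axonal channel, had 3 and 2. Summed over its windows the group held 531 and 522 insertions (0.03, -0.14 to 0.21).

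Among the electrically silent modifiers (Kcnf, Kcng, Kcns and Kcnv), which make no channel alone and alter the pore subunits they join, Kcnv2 stood at the top. Kcnv2, a gene mutated in an inherited cone disease with supernormal rod responses, had 68 wild-type and 58 knockout insertions (-0.17, -0.70 to 0.36). Kcnf1 had 24 and 23, Kcng4 had 19 and 17, and Kcnv1, the other member of its subfamily, had 1 and 4. Kcnv2 thus held more insertions than the other 9 genes of the group in both libraries. Among the Kcns genes Kcns1 had 14 and 7, Kcns2 had 19 and 10, and Kcns3 had 5 and 2 at its far end. At the listed starts of Kcns3 the knockout library held more, with 4 and 11 at the fuller one and 3 and 6 at the other. The sum over the 3 windows, 38 and 19, gave -0.92 (-1.82 to -0.11). This value rests on the window: at 1000 bp either side the sum was 65 and 59 (-0.08, -0.61 to 0.45), and at the annotated starts, which the table gives for Kcns1 and Kcns3, it was 18 and 18. Over the gene bodies with 5 kb either side the Kcns genes held 279 and 294 (0.13, -0.11 to 0.38).

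Of the 14 inward rectifier genes 7 had at least 20 insertions. The group ran from nearly empty windows to 1 of the 7 fullest of the family. Kcnj14, a gene of a strongly rectifying channel of neurons, had 71 wild-type and 68 knockout insertions, with an end of Grwd1 within 1 kb. Kcnj11, the pore subunit gene of the ATP-sensitive channel, had 33 and 32, and Kcnj2, a gene of the classical strong rectifier, had 25 and 31. At the low end Kcnj3, a G-protein-gated channel gene, had 0 and 1 at its gene end and 28 and 18 at the start listed 24.2 kb further in. Kcnj16 had 0 and 1 and Kcnj15 had 1 and 1, both at the far end, and none of their listed starts held more than 3 insertions in all. Kcnj13, a channel gene of the retinal pigment epithelium, had 6 and 3 at its far end and 2 and 4 at its listed start, too few to give a direction. The subfamily summed to 217 and 233 (0.16, -0.11 to 0.44).

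The 14 genes of leak channels with a pair of pore domains (Kcnk) had 5 windows with at least 20 insertions and none with 100. Kcnk3, an acid-sensitive leak channel gene, led with 26 in each library. Kcnk15 had 22 and 13, and Kcnk6 had 15 in each. Kcnk12 had 18 and 17 at its far end and 9 in each library at its listed start. Kcnk2, a mechanically gated channel gene, held 1 and 4 at its far end, but 8 and 13 around a start listed inside the gene, beside a called open region. Kcnk1 held 1 and 3 at its gene end and 9 and 5 around the listed start further in. The subfamily summed to 134 and 125 (-0.04, -0.40 to 0.32).

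Among the calcium- or sodium-activated channel genes the Kcnn subfamily was the most open. These genes encode small- and intermediate-conductance channels gated by calcium through calmodulin. Kcnn1 had 87 wild-type and 81 knockout insertions (-0.04, -0.50 to 0.41), Kcnn2 had 43 and 33, and Kcnn3 had 15 and 14. Kcnn4 had 12 and 10 at its far end and 3 and 5 at its listed start, so its promoter was not measured at the minimum of 20. Kcnma1, the pore gene of the large-conductance channel, had 16 and 22. The sodium-activated channel genes Kcnt1 and Kcnt2 had 7 and 12 and 7 and 11, and Kcnu1, a channel gene of sperm, had 5 and 2.

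Auxiliary subunit genes held both the fullest window of the family and the largest difference between libraries. Kcnab2, the gene of a cytoplasmic beta subunit of voltage-gated channels, had 164 and 156 insertions (-0.01, -0.34 to 0.31) and ranked 1394 of all genes. An end of Nphp4, a gene of the ciliary transition zone, lay within 1 kb, so the window serves both genes. Kcnab3 had 42 and 28 (-0.52, -1.27 to 0.20) beside an end of Trappc1. Kcnmb4, the neuronal beta subunit gene of the large-conductance channel, had 22 wild-type and 6 knockout insertions (-1.73, -3.41 to -0.47), the only one of 46 windows with at least 20 insertions whose interval left out 0, where 3.18% of all such windows had one (1.9% above 0 and 1.28% below). With 500 bp around its listed start, 0.34 kb further in, it had 18 and 9 (-0.90, -2.28 to 0.29), and with 1000 bp around the gene end 26 and 14 (-0.81, -1.88 to 0.16). An antisense noncoding gene, Kcnmb4os2, overlaps that start. Kcnip3, a gene of a calcium-binding partner of the Kcnd channels, had 18 and 7 (-1.24, -2.81 to 0.02) at its outermost listed start. Around the next listed start, 0.70 kb further in, it had 15 and 11. Over the gene with 5 kb either side Kcnip3 held 503 and 542 (0.17, -0.01 to 0.34). Its 4 open regions held 54 and 60 in all, and 1 of them, 14.6 kb in, held 8 and 21 (1.40, 0.22 to 2.84). The Kcne genes, single-pass modulators, had 0 of 5 windows with at least 20. Kcnrg, which is named for similarity to a channel domain and belongs to none of these groups, had 8 and 4.

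**Figure D3:**
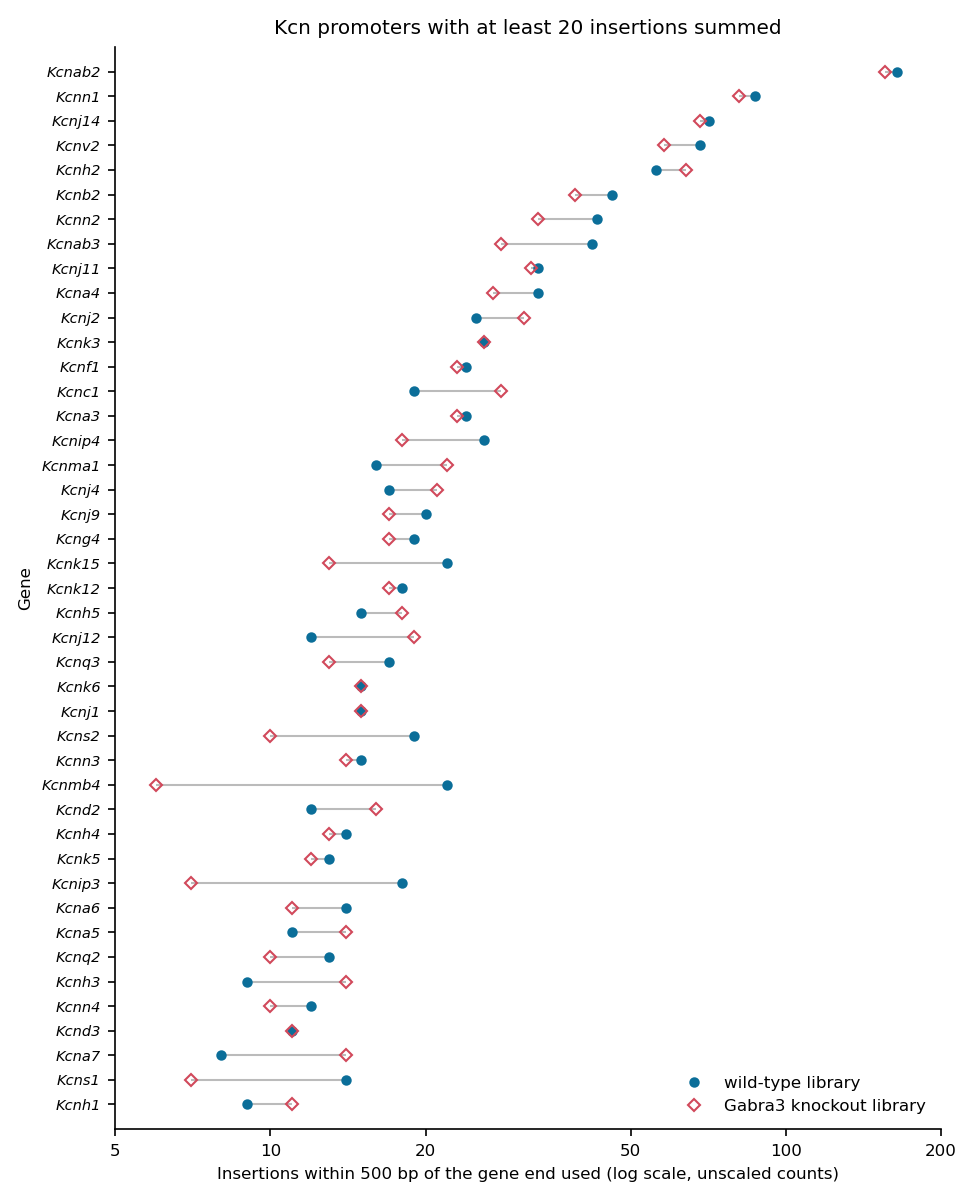
Insertions within 500 bp of the gene end used (log axis, unscaled counts) in the wild-type library (blue circles) and the knockout library (open red diamonds) for 43 of the 46 Kcn genes with at least 20 insertions summed. Kcnab2 is at the top with 164 and 156, and the widest gap is at Kcnmb4 with 22 and 6.

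At windows with enough insertions, no potassium channel promoter differed by 1.5-fold or more between the libraries. This holds for 0 of the 7 windows with at least 100 insertions, where 0.746% of all 7509 such promoters were that far apart (0.519% higher and 0.226% lower). It holds for 0 of the 7 with 50 to 99 insertions, where the share was 8.61% (4.05% and 4.55%), and so for 0 of the 14 with at least 50 (2.27%, as 1.2% and 1.06%). For 7 of the 7 fullest windows the interval excluded a 2-fold difference either way, as it did for 98.0% of all promoters with at least 100 insertions, and it left out 0 for none of them, against 1.84% of all such promoters above 0 and 0.972% below. The 14 ratios ran from -0.52 at Kcnab3 to 0.36 at Kcnj2, with Kcnn2 at -0.32 and Kcnj11 at 0.02.

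Of the 46 windows with at least 20 insertions 10 were 1.5-fold or more apart (21.7%), where 7.38% of all such windows were. Of these 5 were higher in the knockout library (against 4.07%) and 5 lower (against 3.31%). All 10 held 20 to 49 insertions, a range that holds 32 of the 46 Kcn windows but 2583 of the 11893 windows of all genes. Within that range the Kcn share was 31.2% and that of all genes 25.8% (14.4% higher and 11.4% lower), so most of the gap between 21.7% and 7.38% went with how full the windows were. Among the 5 higher were Kcnc1, Kcnj12, Kcnh3 and Kcna7, and the 5 lower were Kcnmb4, Kcnip3, Kcns1, Kcns2 and Kcnk15. Around its listed start, 0.25 kb away, Kcnc1 held 29 and 37 (0.41, -0.33 to 1.16), less than 1.5-fold apart. Kcnj12 held 9 and 8 around its listed start, 43.2 kb away, and the Kcna7 window was at its listed start. Summed over the 93 windows, 1571 wild-type and 1488 knockout insertions gave -0.02 (-0.12 to 0.08), and all protein-coding genes summed to 0.02. Of the 21 subfamily sums at promoters 1 had an interval that left out 0, that of Kcns.

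Counts over each gene with 5 kb either side, called a locus here, take in introns and flanks. The 93 loci held 35497 wild-type and 34800 knockout insertions. The ratio was 0.03 (0.01 to 0.05) scaled to open regions and -0.03 (-0.05 to -0.01) scaled to all autosomal insertions. Its sign thus rests on the scaling. All genes had 0.06 on the first scale and -0.0049 on the second, above the Kcn interval on both scales. That difference was not tested. Of 85 loci with at least 100 insertions 1 was 1.5-fold apart (1.18%, against 0.431% of 16724 loci, 0.365% higher and 0.0658% lower), and 0 were 2-fold apart (0.00598% of all loci, all on the higher side). That 1 locus was Kcnk7, a gene of a silent leak channel subunit, with 64 wild-type and 98 knockout insertions (0.67, 0.20 to 1.15) over a locus that overlaps Map3k11 and Ehbp1l1. Without the flanks Kcnk7 had 15 and 23.

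Beyond that fold, intervals left out 0 on the higher side for 8 of the 85 loci (9.41%), where 8.42% of all loci did, and on the lower side for 5 (5.88%), where 1.31% did. With all autosomal insertions as the scale they did so for 3 higher (3.53%, against 3.11% of all loci) and 8 lower (9.41%, against 3.89%). Intervals narrow as a locus holds more insertions, and the median length was 42.5 kb for the 93 Kcn loci against 27.2 kb for all genes. The shares were not matched for how full the loci were. Of the higher ones, Kcnq1, a channel gene of heart and ear, had the most insertions, with 1518 and 1746 (0.26, 0.16 to 0.36, and 0.20, 0.10 to 0.30 on the second scale), but its 3 open regions held 113 and 98. In Kcnq1 the open regions thus held no more knockout than wild-type insertions, and the excess lay outside them. Among those on the lower side were Kcnj9 with 219 and 164 (-0.36, -0.66 to -0.06), Kcnn2 with 787 and 646 (-0.23, -0.38 to -0.07), Kcnmb2 with 1171 and 992 and Kcnq3 with 614 and 522. Kcnn2 was lower in its open regions too, with 109 and 69 (-0.60, -1.06 to -0.15). By subfamily, Kcnmb summed to 1590 and 1387 (-0.14, -0.24 to -0.03, and -0.20, -0.30 to -0.09 on the second scale). Most of that difference lay in Kcnmb2, and Kcnmb3 went the other way with 198 and 210, so the sum rests largely on 1 gene. Kcnq summed to 3916 and 4062 (0.11, 0.05 to 0.18), but the interval was -0.01 to 0.11 on the second scale. Without Kcnq1 the other 4 Kcnq genes held 2398 and 2316 (0.01, -0.07 to 0.09), so that sum rests on Kcnq1. The locus sums of Kcnb, Kcnf and Kcnh also had intervals above 0, which took in 0 on the second scale. Those of Kcnab, Kcnc, Kcnma and Kcnn took in 0 on the first scale and lay below 0 on the second.

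**Figure D4:**
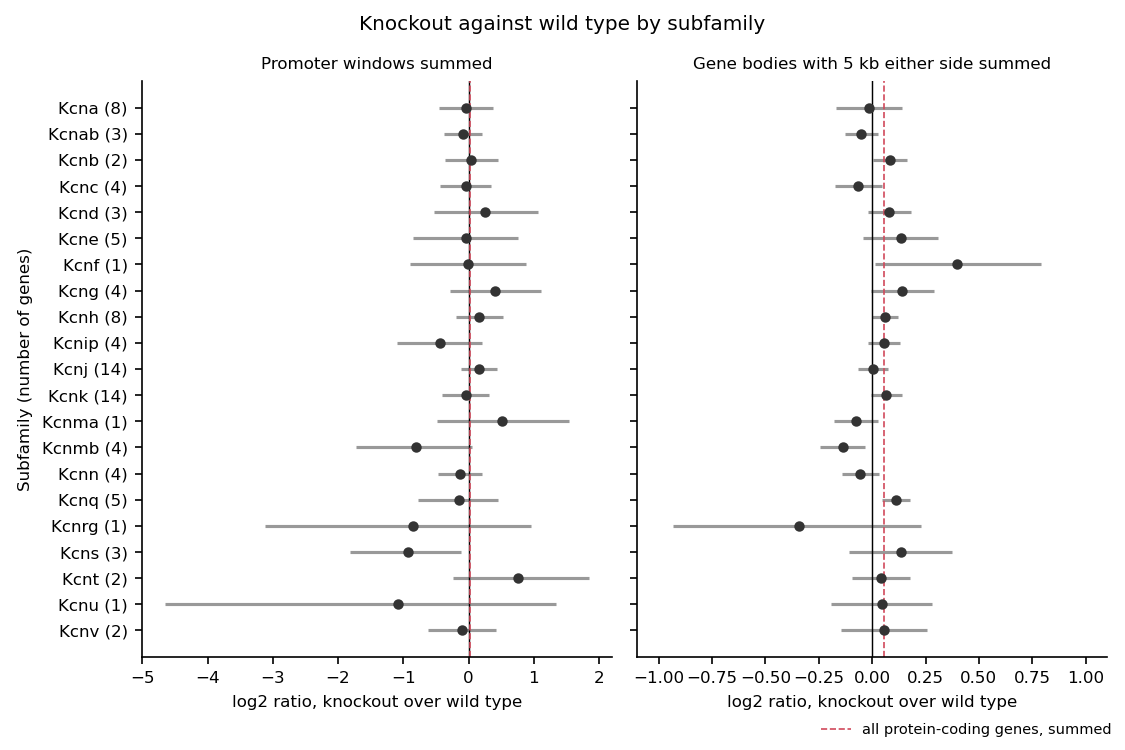
Log2 ratio of knockout over wild type for each subfamily, summed over promoter windows (left) and over gene bodies with 5 kb either side (right), with exact 95% intervals for counting error. The dashed line marks all protein-coding genes summed (0.02 left, 0.06 right); at promoters the Kcns interval of -1.82 to -0.11 is the only one that leaves out 0.

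Open regions were common in these loci, and most lay inside the genes. Of the 93 loci 76 (81.7%) had at least 1 open region, against 68.7% of all genes, with a median locus length of 42.5 kb against 27.2 kb. Together they held 188 regions, of which 114 lay inside a gene over 1 kb from its ends, 51 within 1 kb of an end and 23 in a flank. Of the 23 flanking regions 7 had at least 100 insertions. The fullest of these were at ends of other genes: a region at Cyth2 in the Kcnj14 locus held 261 and 252 insertions, and a region at Arrdc2 in the Kcnn1 locus 208 and 191. In all 14 regions, with 1574 and 1499 insertions, had an end of another protein-coding gene within 1 kb. Over the 188 regions 4914 and 4580 insertions gave -0.04 (-0.10 to 0.02), and without those 14 it was -0.06 (-0.13 to 0.01). Scaled to all autosomal insertions the 188 regions gave -0.104 (-0.162 to -0.046). Regions summed over the loci of all genes gave 0.007 on the first scale and -0.054 on the second. Of the 48 regions with at least 50 insertions 0 were 1.5-fold higher in the knockout library (1.36% of all such regions). Lower by that fold were 3 (6.25%, against 1.79% of all such regions). They lay in Kcnn2 (49 and 30, -1.36 to 0.04), 2.67 kb before Kcnc1 (34 and 19, -1.67 to 0.07) and in Kcnh1 (32 and 20, -1.50 to 0.23). Each of these intervals includes 0, and the shares were not matched for how full the regions were.

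The Kcnv2 and Kcnn1 loci were among the densest of the family. Kcnv2 spans chromosome 19, 27322061 to 27337179 (GRCm38), and its locus holds no other protein-coding gene. Both libraries together had 4.88 times the genome mean there, while the median Kcn locus had 1.36 times and the median of all genes 1.71 times. The fullest Kcnv2 region lay 0.19 kb inside the end used and held 94 wild-type and 87 knockout insertions (-0.05, -0.49 to 0.38). Another lay 1.14 kb in with 31 and 26, and the third lay 10.3 kb in with 9 and 17 (0.94, -0.27 to 2.32). Each of the 3 had an interval that includes 0. An end of the noncoding gene Gm35268 lies within 1 kb of the fullest region, so that region cannot be assigned to Kcnv2 alone. The Kcnn1 locus had 7.82 times the genome mean, with its fullest region at Arrdc2. At the Kcnn1 end used a region held 81 and 74, and the region at the start inside the gene held 43 and 54.

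**Figure D5:**
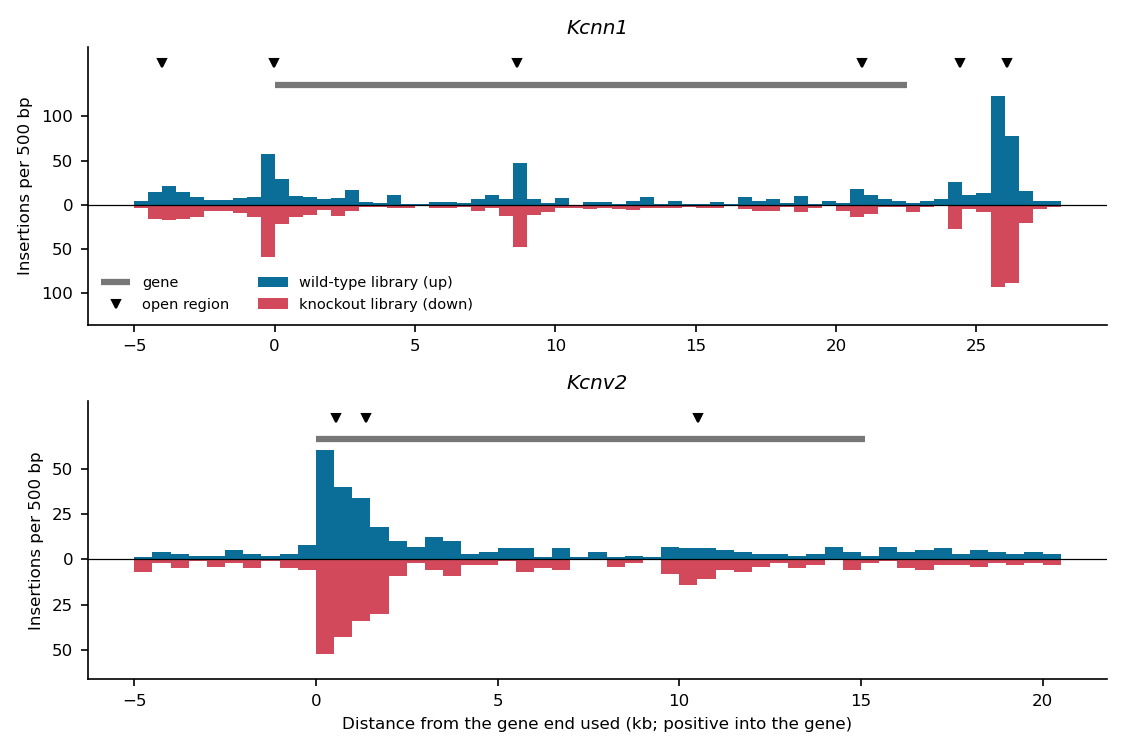
Insertions per 500 bp in the wild-type (blue, up) and knockout (red, down) libraries along Kcnn1 (top) and Kcnv2 (bottom) against the distance from the gene end used (kb), with the gene as a grey bar and open regions as triangles. Kcnn1 has 6 open regions, the fullest of them past the far end of the gene at Arrdc2 (208 and 191 insertions), and Kcnv2 has 3.

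Some genes had insertions gathered at a start inside the gene. Kcnab1, a beta subunit gene, held 6 wild-type and 8 knockout insertions at its gene end and 33 and 25 around a start listed 160 kb further in. Kcnn1 held 57 and 62 around the listed start 8.68 kb in, whose sequence is given above, beside 87 and 81 at its gene end. Kcnq1 held 7 and 5 at the gene end, while the region around the start of Kcnq1ot1 in its interior held 85 and 73 (-0.16, -0.63 to 0.31). Kcnq1ot1 is an imprinted noncoding RNA gene transcribed from the paternal chromosome, so this region need not mark Kcnq1 activity. The number of open regions varied among long genes. Kcnma1 had 12 weak ones over 713 kb, with 84 and 75 insertions in all. Kcnab1 had 8 over 429 kb, while Kcnip4 had 4 over 1136 kb.

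The 22 partner genes encode proteins bound to these channels, HCN channels and subunits of the sodium-potassium pump. At least 20 insertions were held by 14 (63.6%, against 54.3% of all genes) and at least 100 by 5 (22.7%, against 34.3%). Of the pump genes, Atp1b3 had 204 and 200, Atp1b2 had 60 and 53 and Atp1b1 had 33 and 30, all of them genes of the beta subunit that brings the pump to the membrane. Hcn2, a gene of a hyperpolarization-activated channel, had 32 in each library and Hcn4 had 17 and 22. Amigo1, the gene of an adhesion protein bound to the Kcnb channels, had 21 and 27. Dpp6 and Dpp10, partners of the Kcnd channels, had 2 and 3 and 6 and 9. The 22 windows summed to 942 and 888 (-0.03, -0.16 to 0.11).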

How the data were processed

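Each genotype gave 1 library of 75 bp single-end reads. Trimmomatic 0.33, BWA, bedtools 2.23.0 and GRCm38 (mm10) are named, with no roles, in the submitters' processing notes. The authors deposited aligned reads, a line each, with start and end coordinates and a score, which holds the mapper's quality value; the authors normalized nothing in these columns. There were 9170838 wild-type and 9038110 knockout reads.

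Reads with a score of at least 10 were kept (93.6% and 93.4%), counted once per position and strand, and shifted by 4 bp or 5 bp to the Tn5 site, in Python 3.11.15 with numpy 2.4.6, pandas 2.3.3 and scipy 1.17.1. To call open regions, 200 bp windows every 50 bp were compared with the higher of the genome mean and the surrounding 10000 bp (Poisson p under 1e-05) and merged within 150 bp. Ratios and region calls were tested on simulated data. Gene positions came from a RefSeq table of GRCm38. Members and lists were chosen with earlier results of these data known.

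The rule for named genes took windows with at least 100 insertions, the fullest window and locus of each subfamily, the 5 highest and 5 lowest ratios at windows with at least 50 and at loci with at least 100 insertions, genes with a known retinal role, and partner genes with at least 100. Other genes named, and the printed sequences, were chosen after their values were seen. Alternatives changed the read filters, shift, scaling, pseudocount, window, gene end, flank and thresholds. Some genes that the rule names are not reported here by name, though the sums and counts hold them, and the planned Kcnv2 sequence is not printed.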

Additional observations from a re-analysis of the deposited data

How the results depend on the processing

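Of 665 values recomputed under alternatives, 645 stayed within the interval of the reported value or, for counts, within 1.5 times of it. The summed Kcn locus ratio was -0.031 with all autosomal insertions and -0.029 with the trimmed mean of M values, both reversed from 0.03, and 0.063 with all reads kept. The summed Kcnh locus ratio was 0.00057 with all autosomal insertions, against 0.06. The Kcns promoter sum was 0.059 at annotated starts and -0.079 with 1000 bp windows, against -0.92. At annotated starts the Kcnc promoter sum was 0.66, against -0.04. Such starts are listed for 3 of the 4 Kcnc genes, and in Kcns for Kcns1 and Kcns3 only. Both sums at annotated starts are thus over fewer genes than the main sums. What else shifted them was not tested. Without Kcnq1 the Kcnq locus sum was 0.0089, against 0.11. With no minimum of insertions 19 Kcn promoters were 1.5-fold higher and 15 lower, with windows of as few as 1 insertion counted. The share of all genes was not computed at that setting, so these counts say nothing of the family. The 1 locus that was 1.5-fold higher became 0 at 2-fold, and 0 without flanks, where Kcnk7 held 15 and 23 insertions, under the minimum. The share of measured promoters was 24.7% with 250 bp windows, 76.3% with 1000 bp, 64.5% over both gene ends, 77.4% at a minimum of 10 insertions and 15.1% at 50. Called in each library alone at equal depth, the open regions numbered 109 (wild type) and 101 (knockout, in 49 loci). The Kcnq sum without Kcnq1, the sum without regions at other genes' ends, and the locus sum outside open regions (0.04), were added after seeing the data. No paired analysis was possible because each genotype has 1 library, and for the same reason no replicate could be left out.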
